A study of Saccharomyces cerevisiae with 6 samples.

Results

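Budding yeast whose only TOR1 protein carried the substitutions I1954V and W2176R was exposed to 3, 6 and 9 mM caffeine, and its polyA RNA was set against that of untreated cells of the strain. These 3 two-colour arrays, chosen by their titles, are 3 of the 6 arrays of the series. The other 3 arrays hold the same doses in cells with unaltered TOR1 and serve here only as the comparison. Both strains were tor1 deletion cells of the W303a laboratory background that carried a plasmid, p3HA-TOR1 or p3HA-TOR1 [I1954V + W2176R], so the controls lack the chromosomal gene as well. They are called WT and mutant below. On every array the untreated RNA was labelled with Cy3 and the RNA of caffeine-treated cells with Cy5, and 0 arrays had the dyes swapped. There was 1 array per genotype and dose, so no dose had a replicate, and the number of arrays limits the precision. The labels do not say whether the 3 untreated RNAs of a strain came from 1 culture or from several, nor how long the cells were treated.

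TOR1 and its paralogue TOR2 encode the kinase of TOR complex 1, which couples growth to nutrient supply, and caffeine is an inhibitor of that complex. When the complex is inhibited, the GATA factors GLN3 and GAT1 turn on genes for the use of poor nitrogen sources, MSN2 and MSN4 turn on general stress genes, and RTG1 and RTG3 turn on the retrograde genes that supply glutamate precursors. At the same time, transcription of ribosomal protein and ribosome biogenesis genes is reduced. Caffeine also activates the cell wall integrity pathway, whose MAP kinase induces genes of wall synthesis and repair.

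A value below is a log2 ratio, taken as caffeine over untreated. No source used here states which channel is divided by which. Cy5 over Cy3 was taken as likely because it is the usual order, and were it untreated over caffeine, all signs below would turn. The median named gene of an array was set to 0 (array-centred values). Before that the medians were -0.22, -0.40 and -0.54 at the rising doses. Genes were sorted by the doses at which they stood at least 2-fold from the median, a description without a test, over 5316 genes with a value on all 3 mutant arrays. The test was limma's slope on dose through 0, fitted to all 6 arrays over 5212 genes, with Benjamini-Hochberg adjustment over all of them and a threshold of 0.05. It asks whether a gene departed from no change along a line in dose, and its SE pools the spread of both genotypes. It does not ask which shape the response had. The dose classes and the slopes come from the same values. How many genes of a class pass the test therefore follows in part from the sorting.

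The 3 mutant arrays stood apart from the WT arrays in an offset that follows the probe number. Read in runs of 96 as 8 rows of 12 columns, the probes fell into 16 position classes, and these classes took up 47.8%, 53.6% and 37.9% of the variance of the log2 ratios on the mutant arrays at 3, 6 and 9 mM. On the WT arrays they took up 8.56%, 12.8% and 11.6%. At 6 mM in the mutant the medians of the classes ran from -1.55 to 0.57, and the share of probes at least 2-fold lower ran from 0% in one class to 83.2% in another. The array print layout was not used here, and the cause of the offset was not tested. Each result is therefore also given with the median of every class on every array set to 0 (position-centred values), a choice made after seeing the data. For the 34 genes with more than 1 spot (31 with repeat values at 6 mM), spots of a gene differed less in the mutant under this centring. The median SD between spots went from 0.68 to 0.29 at 3 mM, from 0.74 to 0.32 at 6 mM and from 0.83 to 0.40 at 9 mM. The pooled SD, to which discordant spots add more, went from 0.73 to 0.46, from 0.89 to 0.50 and from 1.01 to 0.76. The words rose and fell are used below only for genes whose slope passed the test under both centrings.

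**Figure D1:**
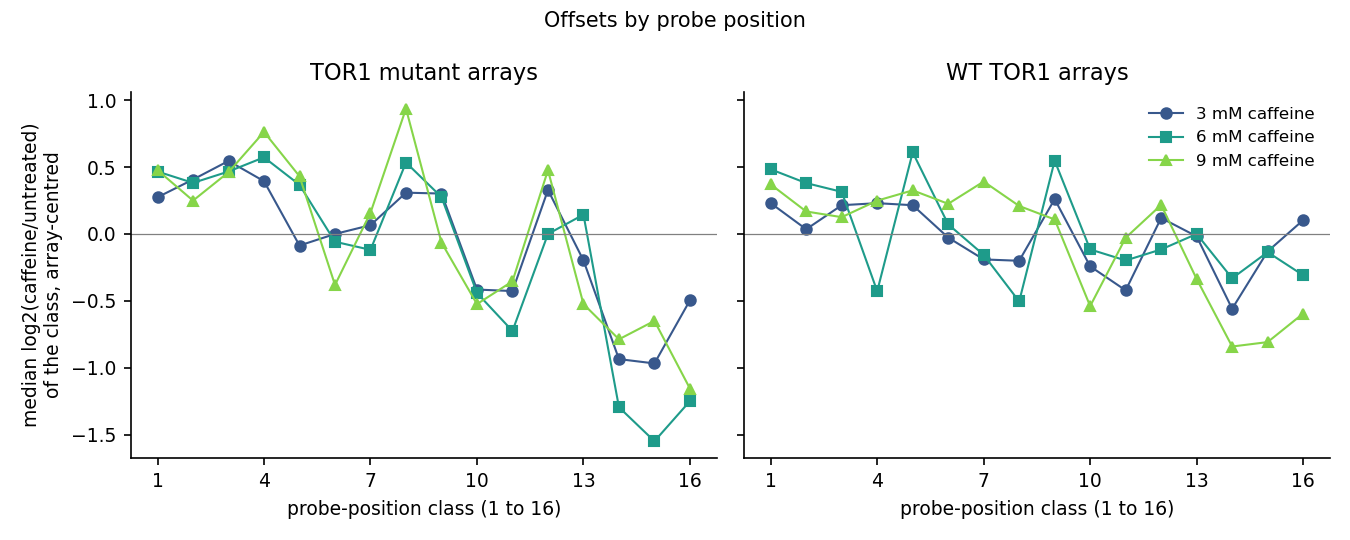
Median array-centred log2 ratio of the probes in each of the 16 position classes (x axis), with 1 line per caffeine dose, for the mutant and the WT arrays. The mutant lines spread over a range from -1.55 to 0.57 at 6 mM, where the WT medians at that dose stay between -0.50 and 0.61.

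On the position-centred scale, the number of genes far from the median grew with each dose in both directions. Position-centred, 102 genes (1.92%) were at least 2-fold higher and 103 (1.94%) at least 2-fold lower at 3 mM. At 6 mM the counts were 269 higher (5.06%) and 201 lower (3.78%), and at 9 mM they were 490 higher (9.22%) and 387 lower (7.28%). The array-centred counts were larger and leaned to the lower side at the lower doses, and the lower count was smaller at 9 mM than at 6 mM. They were 228 higher (4.29%) and 460 lower (8.65%) at 3 mM, 388 (7.3%) and 942 (17.7%) at 6 mM, and 757 (14.2%) and 745 (14%) at 9 mM. WT arrays had more genes past 2-fold at each dose on the position-centred scale, with 448 higher and 384 lower at 3 mM, 615 and 635 at 6 mM and 858 and 828 at 9 mM among 5396 genes. Many genes sat near the threshold: within 0.1 of a log2 ratio of 1 in size at 3 mM, 115 were just under and 68 just over it position-centred, and 243 and 176 array-centred.

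The limma slope called 633 genes higher (12.1%) and 822 lower (15.8%) on the array-centred values, and 306 higher (5.87%) and 231 lower (4.43%) on the position-centred values. Under both centrings, 204 genes rose (3.91%) and 156 fell (2.99%). These counts depended on the arrays and the model. With an intercept shared by all 6 arrays, which absorbs any dye bias constant for a gene, 22 genes were called in all, and 12 with position centring as well. Leaving out the mutant 6 mM array gave 612 calls and leaving out the mutant 9 mM array 810, against 1455 with all arrays. On the position-centred values, the counts without the mutant 3, 6 and 9 mM arrays were 275, 113 and 9, against 537. Most of the position-centred calls were not made without the 9 mM array.

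Sorted by dose, genes that first passed 2-fold at 9 mM were the largest class in both directions on the position-centred scale. Those past 2-fold at all 3 doses numbered 33 higher (0.621%) and 17 lower (0.32%), those past it from 6 mM 125 higher (2.35%) and 83 lower (1.56%), and those past it only at 9 mM 317 higher (5.96%) and 266 lower (5%). Another 4137 genes (77.8%) stayed within 2-fold at every dose. On the array-centred scale the classes held 76 (1.43%) and 203 (3.82%) from 3 mM, 198 (3.72%) and 262 (4.93%) from 6 mM, and 433 (8.15%) and 238 (4.48%) at 9 mM only. Membership depended on the centring. In the lower class from 3 mM 7 of the 203 genes kept it, 3.4%, which is 41.2% of the 17 position-centred genes. In the higher class from 3 mM 19 genes were shared, 25% of the array-centred and 57.6% of the position-centred genes. From 6 mM the 2 scales shared 54 genes higher and 36 lower, and at 9 mM only 136 and 82.

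**Figure D2:**
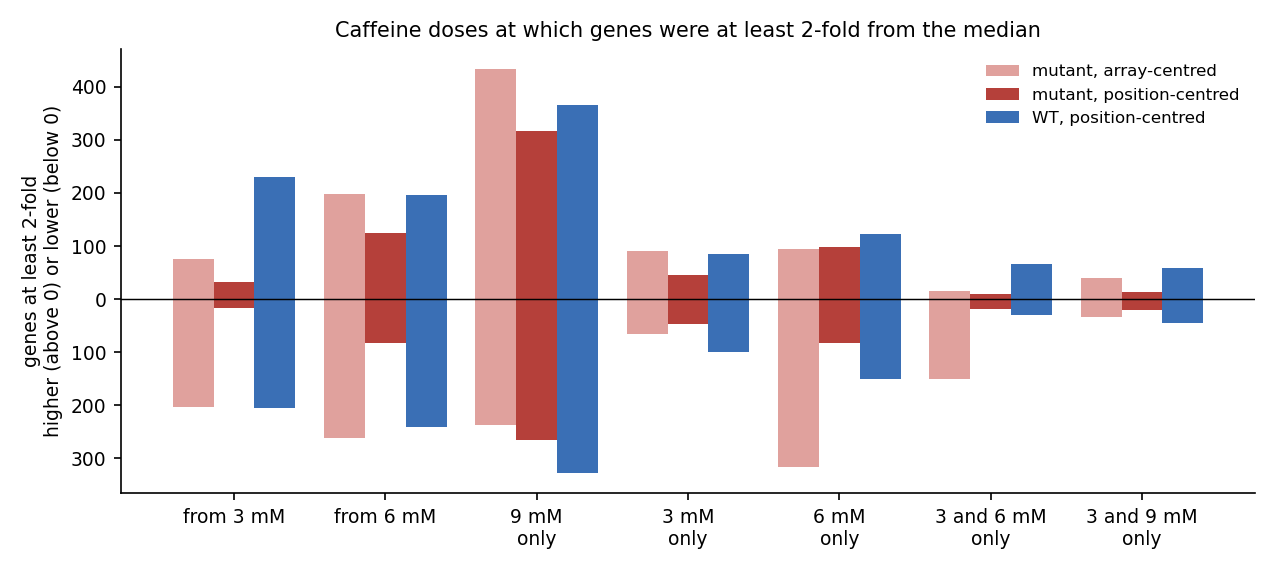
Number of genes in each dose class, at least 2-fold higher (bars above 0) or lower (bars below 0), for the mutant array-centred, the mutant position-centred and the WT position-centred values. The mutant class from 3 mM lower has 203 genes array-centred and 17 position-centred, against 205 in WT.

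Of the genes higher from 3 mM, CHA1, PDH1 and DIP5 had the highest minimum over the 3 doses on the array-centred scale. CHA1, the serine and threonine deaminase of amino acid catabolism, stood at 2.41, 3.42 and 3.91 at 3, 6 and 9 mM (2.07, 3.42 and 3.43 position-centred). It was already high at the lowest dose and changed little above 6 mM, and its slope was 0.50 ± 0.07 per mM (SE, n = 3 mutant arrays), with limma adjusted p = 0.000626, and 0.00838 position-centred. DIP5, the permease for glutamate and aspartate, had its highest value at 3 mM, with 2.81, 1.98 and 2.07 (2.39, 1.60 and 1.82 position-centred). PDH1, an enzyme of propionate breakdown in mitochondria, stood at 2.14, 2.86 and 2.92 (1.72, 2.48 and 2.67). All 3 genes rose, PDH1 and DIP5 narrowly on the position-centred scale, with limma adjusted p = 0.041 and 0.0398.

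HSP31, a methylglyoxalase with chaperone activity, stood at 1.61, 2.23 and 3.42 (1.33, 1.76 and 2.94 position-centred) and rose with each dose. HSP33, a member of the same family, stood at 1.79, 2.11 and 2.98, and its spot could also bind transcripts of near-identical family members. POR1, the porin of the outer mitochondrial membrane, stood at 1.59, 2.15 and 2.61. These genes also rose, and all 6 named so far were the largest of their class by the naming rule.

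Of the 19 genes higher from 3 mM under both centrings, 13 rose and 6 did not pass the test on both scales. Those described in this paragraph were named after their values were seen, apart from genes that lead a function list. CIT2, the peroxisomal citrate synthase of the retrograde response, stood at 1.06, 1.47 and 2.15 (1.47, 1.91 and 2.67 position-centred). INO1, the enzyme that makes inositol phosphate, stood at 1.17, 1.92 and 2.17 (1.17, 1.98 and 2.55). BGL2 and EXG1, 2 glucanases of the cell wall, differed from these in shape, with no higher value at 9 mM than at 3 mM. BGL2 stood at 1.75, 1.21 and 1.67 and EXG1 at 1.83, 1.44 and 1.64. FMP33, a mitochondrial protein of unknown role, TAF14, a subunit of several transcription complexes, and YMR051C, a Ty element gene, also rose. BAT2, a branched-chain aminotransferase of the cytosol, stood at 1.54, 2.11 and 2.36, with adjusted p = 0.0144 array-centred and 0.0773 position-centred. ARG4, DCS1, PRM5, YBR012W-A and YML039W were the other genes that missed the test on the position-centred scale. DCS1, which clears cap remnants of degraded mRNA, had its highest value at 3 mM (3.75, 1.57 and 2.63), as did PRM5, a membrane protein induced by the cell wall integrity pathway (2.69, 1.38 and 2.06). Ty genes have many copies in the genome, so YBR012W-A, YML039W and YMR051C may not be separate measurements.

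Few genes were lower at every dose under both centrings, and all 7 fell, which their sorting made likely. LYS4, the homoaconitase of lysine synthesis, stood at -1.67, -3.08 and -3.52 (-1.18, -1.83 and -2.37 position-centred). Its slope of -0.44 ± 0.04 per mM was the lowest of all called genes on the array-centred scale (limma adjusted p = 0.000128, and 0.0032 position-centred with a slope of -0.28 ± 0.03). FTR1, the high-affinity iron permease, stood at -1.14, -2.25 and -1.79 (-1.48, -2.25 and -2.26). The others were the ribosomal protein genes RPS11B and RPL43A, REF2 of mRNA 3′ end formation, and, named after their values were seen, CAF130 of the CCR4-NOT complex and YEL076C-A. RPS11B stood at -1.07, -2.08 and -1.79 (-1.40, -2.08 and -2.26). REF2 was flat at -1.26, -1.60 and -1.58 (-1.26, -1.55 and -1.20).

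The genes that the naming rule picked as lowest from 3 mM on the array-centred scale were ARG82, TCA17, SND1, PAU6, CNN1 and RIP1, and each of the 6 left that class after position centring. ARG82, an inositol phosphate kinase, stood at -2.03, -2.16 and -2.79, and at -1.54, -0.91 and -1.63 position-centred. CNN1, a kinetochore protein, stood at -1.78, -2.16 and -1.79, and at -0.85, -0.87 and -1.0. Their size at each dose depended on the centring, although TCA17, PAU6, CNN1 and RIP1 fell by the slope on both scales.

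HSP12 and ARO10 were within 2-fold at 3 mM and more than 3 above 0 on the log2 scale from 6 mM. HSP12, which encodes a small heat shock protein that binds membranes, stood at 0.90, 4.25 and 5.34 (0.61, 3.79 and 4.87 position-centred), the largest 9 mM value on the mutant arrays before position centring. Its slope was 0.61 ± 0.05 per mM, with limma adjusted p = 3.16e-05, and 0.000333 position-centred. ARO10, the decarboxylase of the Ehrlich pathway for aromatic amino acids, stood at 0.48, 3.67 and 4.38 (0.14, 3.67 and 3.90). For both genes the step from 3 to 6 mM was larger than the step from 6 to 9 mM.

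DDR2, a small stress protein, rose in more even steps, with 0.97, 2.68 and 4.37 (0.63, 2.68 and 3.90 position-centred). TSA2, a cytosolic peroxidase that uses thioredoxin, stood at 0.03, 2.14 and 3.87 (-0.25, 1.67 and 3.40). GLK1, the glucokinase, stood at 0.25, 2.19 and 2.16 (0.44, 2.05 and 2.68). RCR1, a membrane protein linked to chitin deposition, stood at 0.92, 2.22 and 3.22 (0.52, 1.65 and 2.46). All of these genes rose. Of the 54 genes higher from 6 mM under both centrings, 52 rose.

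On the lower side from 6 mM, 30 of the 36 genes shared by both centrings fell. GCN4, the activator of amino acid synthesis genes, stood at -0.78, -2.66 and -2.65, and at -0.29, -1.42 and -1.50 position-centred. ACL4, the chaperone of a ribosomal protein, stood at -0.62, -2.79 and -2.79 (-0.13, -1.54 and -1.63), and RPS9B at -0.84, -2.25 and -3.11 (-0.35, -1.0 and -1.95). SIR2, the silencing deacetylase, and TIF4632, a cap-binding scaffold of translation initiation, fell as well. SIR2 stood at -0.38, -2.34 and -2.52 (0.11, -1.09 and -1.37). FAA4, a fatty acyl-CoA synthetase, stood at -0.75, -2.25 and -2.41 (0.17, -0.95 and -1.62) and so passed 2-fold only at 9 mM on the second scale. The values of these genes at 6 and 9 mM lay nearer to 0 after position centring. DBP2, an RNA helicase, moved the other way, with 0.05, -1.49 and -1.58 (-0.35, -2.06 and -2.35). A smaller shift toward 0 was found for NSR1, the yeast nucleolin, with -0.02, -1.34 and -2.41 (-0.02, -1.28 and -2.03). NSR1 was named as 1 of the 4 steepest ribosome biogenesis genes on the position-centred scale.

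Because the slope is a line through 0, genes past 2-fold only at 9 mM are less likely to pass the test. Of the genes in this class under both centrings, 41 of 136 rose and 14 of 82 fell. SNP1, the RNA-binding protein of the U1 spliceosome particle, stood at 0.13, 0.64 and 3.13 (0.06, 0.75 and 2.97 position-centred). CDC34, the ubiquitin-conjugating enzyme of the G1 to S transition, stood at 0.41, 0.72 and 3.08 (-0.01, 0.34 and 2.83). GRE3, an aldose reductase, stood at -0.26, -0.25 and 2.60 (0.16, 0.48 and 2.95). These 3 genes rose, and the WT 9 mM values for them were -0.73, 0.04 and 0.06 position-centred. The difference between the mutant and WT slopes was not called, with limma adjusted p = 0.0997 for SNP1, 0.0925 for CDC34 and 0.159 for GRE3 position-centred. With 1 array at 9 mM, a single aberrant spot cannot be told apart from a response at that dose.

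SPS100, a spore wall protein, stood at 0.22, 0.51 and 2.87 (-0.10, -0.03 and 1.94), and ECM31, of pantothenate synthesis, at -0.26, 0.29 and 2.57 (-0.57, -0.24 and 1.64), both without a position-centred call. DCS2, a stress-induced relative of DCS1, moved between classes. It stood at -0.16, 0.04 and 2.61 array-centred and at 0.80, 1.58 and 3.26 position-centred, where it was graded. Lower only at 9 mM were RPL6A, with 0.07, -0.47 and -2.20 (0.26, -0.61 and -1.68), and EFM4, which methylates a translation elongation factor, with -0.62, -0.76 and -2.65 (-0.43, -0.90 and -2.13). Both fell. RPL34B, DPH2 of diphthamide synthesis, MPP10 of the small subunit processome and AIM20 had the same shape and no position-centred call, with position-centred 9 mM values of -1.50, -1.50, -1.34 and -1.50.

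**Figure D3:**
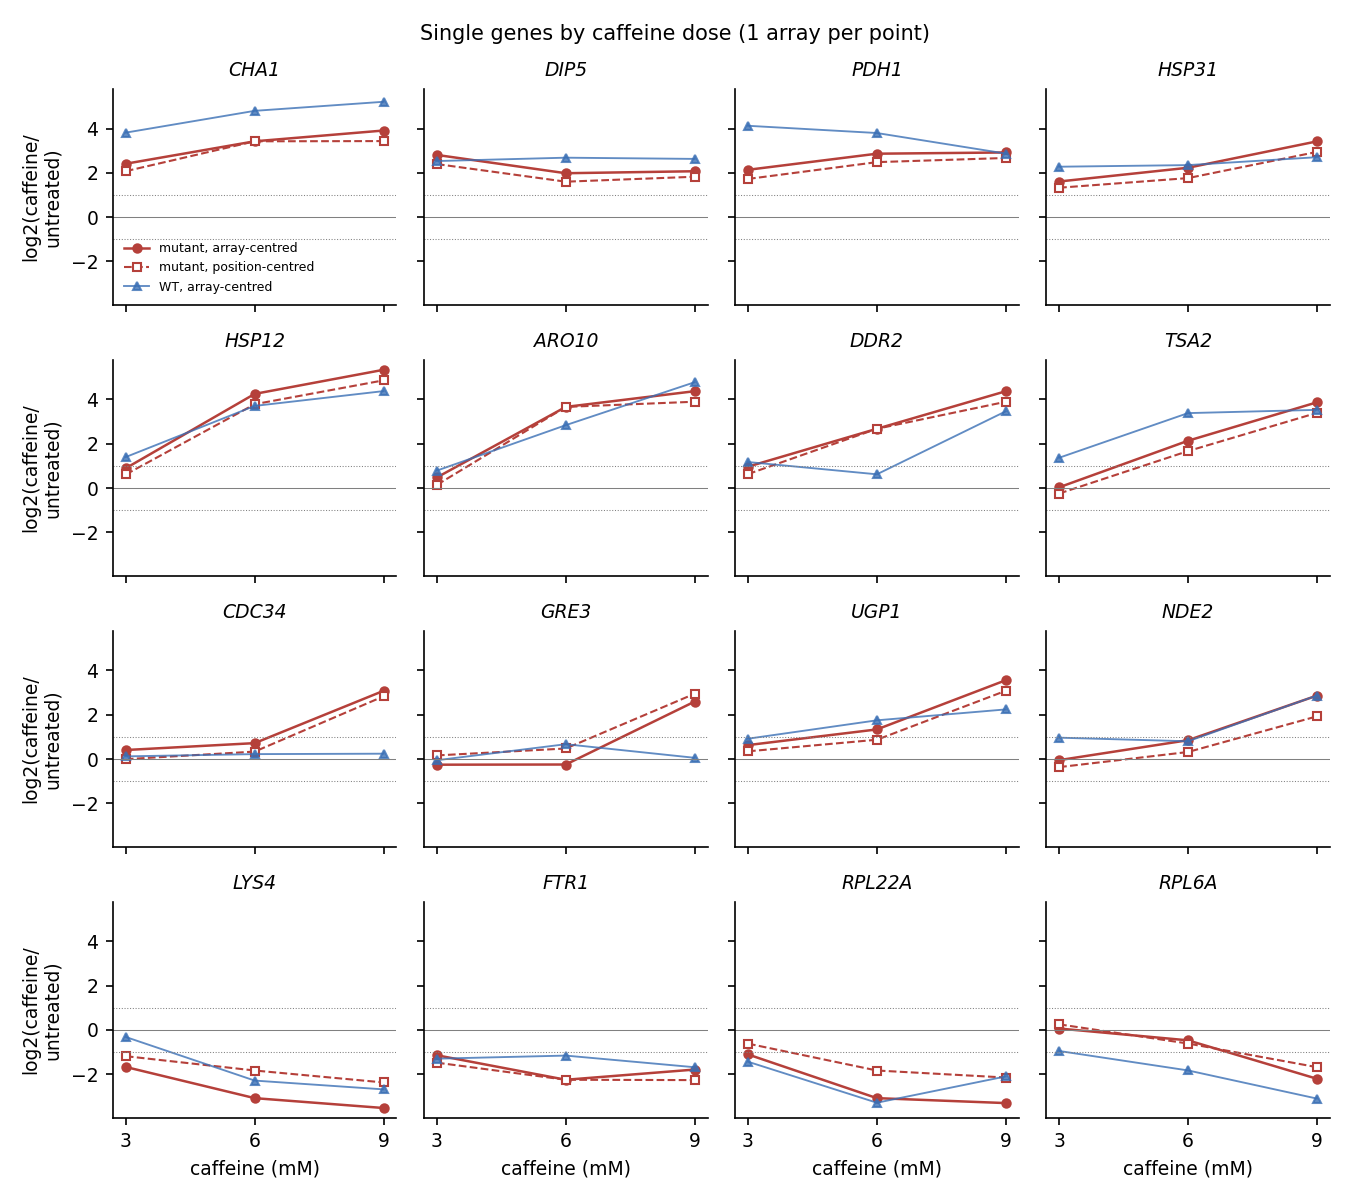
Log2 ratio against caffeine dose (mM) for 16 genes, with the mutant array-centred (solid), the mutant position-centred (dashed) and the WT array-centred values, 1 array per point and dotted lines at 2-fold. CHA1 is past 2-fold from 3 mM, HSP12 passes it between 3 and 6 mM, and CDC34 passes it between 6 and 9 mM.

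A graded response was marked where each step between doses was at least 0.5 on the log2 scale and the 9 mM value at least 2-fold. It was found for 145 genes higher and 94 lower array-centred, and for 117 higher and 47 lower position-centred, with 71 and 25 shared. Of the shared genes 55 rose and 19 fell. The highest by the naming rule were HSP12, HSP26, ARO9, ARO10, DDR2 and TFS1. HSP26, a small heat shock protein that holds unfolded proteins, stood at 0.81, 1.85 and 4.94 (0.50, 1.58 and 5.0 position-centred). ARO9, the aromatic aminotransferase, stood at 0.97, 2.12 and 4.81 (0.66, 1.58 and 3.87). TFS1, an inhibitor of vacuolar carboxypeptidase Y, stood at -0.16, 2.07 and 4.29 (-0.08, 1.70 and 3.85). All 6 rose, and the last step was the larger for HSP26 and ARO9. ARO10 lost the graded mark after position centring, where its values at 6 and 9 mM were 3.67 and 3.90.

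The lowest graded genes were ALB1, GLY1, POC4, RBG1, RPL21A and RPL24B, which share the value -3.30 at 9 mM because the deposited ratios have 2 decimals and reach down to 0.06 on that array. Close to that floor the last decimal makes a large step, so the order of the lowest genes cannot be read. POC4, an assembly chaperone of the proteasome, stood at -1.34, -2.66 and -3.30 (-0.38, -1.11 and -2.65 position-centred), and RPL24B at -0.67, -2.16 and -3.30 (-0.18, -0.91 and -2.15). All 6 genes fell. GLY1, a threonine aldolase, lost the graded mark after position centring, with -0.77, -1.0 and -2.15. The other genes among the 6 lowest slopes were RPL22A, LYS9 of lysine synthesis and SPL2 of phosphate uptake, which fell on both scales.

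Genes past 2-fold only below 9 mM were shared between the centrings in part. At 3 mM only, 15 genes higher and 15 lower were shared, at 6 mM only 28 and 27, and at 3 and 6 mM only 2 and 5. MRPL17, a mitochondrial ribosomal protein, stood at 1.98, 0.45 and 0.30 (1.97, 0.51 and 0.68). MET14, the kinase of sulfate assimilation, stood at 1.41, 1.29 and -0.13 (1.10, 1.02 and -0.07). FLO11, the flocculin, stood at -1.43, -1.34 and -0.23 (-1.74, -1.62 and -0.16), and CLN1, a G1 cyclin, at -2.03, -3.08 and -0.86 (-1.11, -1.78 and -0.07). None of these 4 genes passed the slope test on the position-centred scale. OPY1, a regulator of lipid signalling at the membrane, and YKR015C stood out at 6 mM, with 3.30 and 3.06, against values between -0.65 and 0.75 at 3 and 9 mM. FAA3, a fatty acyl-CoA synthetase, stood at 0.07, 3.67 and -0.49 (1.03, 5.22 and 0.155 position-centred). On the second scale it was thus past 2-fold at 3 mM as well. Each of these peaks rests on 1 spot of 1 array.

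By function, the general stress list held the most genes that rose. The list held 57 tested targets of MSN2 and MSN4, of which 24 rose and none fell (30 higher and 3 lower array-centred, 28 and 0 position-centred), where 3.91% of all genes rose and 2.99% fell. Its median was 0.07, 0.63 and 1.58 at 3, 6 and 9 mM (0.06, 0.55 and 1.27 position-centred), where the median over all genes is 0 or close to it. Of 58 members with a value on the mutant arrays, 1 was at least 2-fold higher at 3 mM, 15 at 6 mM and 34 at 9 mM position-centred, and 6, 19 and 38 array-centred. GAD1, glutamate decarboxylase, stood at 0.27, 1.37 and 3.77 (0.76, 2.62 and 4.92). YGP1, a secreted glycoprotein of starved cells, stood at 1.14, 2.35 and 4.24 (0.59, 1.89 and 3.78). UGP1, which makes UDP-glucose, stood at 0.63, 1.34 and 3.56 (0.35, 0.87 and 3.08), and 16 members were graded upward under both centrings.

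Of 12 tested vacuolar proteases and their inhibitors, 6 rose, none fell and 6 did not pass the test under both centrings, against the 3.91% of all genes that rose. The list had a median of 0.19, 0.70 and 1.34 (0.12, 0.78 and 1.82 position-centred). PEP4, proteinase A, which activates the other vacuolar hydrolases, stood at -0.57, 1.70 and 1.74 (-0.38, 1.56 and 2.26). PRB1, proteinase B, stood at 0.43, 1.28 and 2.95 (0.12, 0.74 and 2.01), and PBI2, its inhibitor, at 0.57, 1.58 and 2.77 (0.50, 1.70 and 2.61). None of the 3 was past 2-fold at 3 mM. In the ATG series of autophagy genes, 3 of 30 rose, ATG19, ATG33 and ATG36, and none fell.

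In the cell wall integrity list 3 of 38 genes were higher from 3 mM under both centrings, BGL2, EXG1 and PRM5, described above. Over all genes 19 of 5316 were in that class. Smaller lists held 2 of 21 (amino acid catabolism) and 1 of 8 (arginine synthesis). Of 38 tested, 9 rose and 1 fell (20 higher and 1 lower array-centred, 9 and 2 position-centred), where 3.91% of all genes rose and 2.99% fell. The list had a median of 0.43, 0.84 and 1.14 (0.24, 0.67 and 0.95 position-centred). PST1, a wall protein induced by damage, stood at 0.70, 1.46 and 2.42 (1.11, 1.90 and 2.95), and SPI1, a wall protein of stationary cells, at 0.72, 2.13 and 3.88 (0.32, 1.56 and 3.12). SRL3 was among the steepest members array-centred and is not called on both scales. The gene that fell was MNN1, a mannosyltransferase of the Golgi, with -0.20, -0.89 and -1.52, named after its values were seen.

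Some genes of antioxidant enzymes and respiratory metabolism rose, where 3.91% of all genes rose and 2.99% fell under both centrings. Of 27 antioxidant genes 6 rose and none fell, among them OYE3, an NADPH oxidoreductase, with 0.97, 2.06 and 2.75 (1.05, 1.69 and 2.32), and AHP1, a peroxiredoxin, with 0.07, 0.40 and 1.31 (0.55, 1.64 and 2.46). In the TCA cycle 4 of 17 rose, with CIT1, the mitochondrial citrate synthase, at 0.61, 1.69 and 2.93 (0.54, 1.81 and 2.77) and KGD2, of the ketoglutarate dehydrogenase, at 0.17, 1.45 and 2.27 (-0.11, 0.99 and 1.79). Of 35 respiratory chain and ATP synthase genes 4 rose and 1 fell. COR1, a subunit of the cytochrome bc1 complex, stood at 0.71, 1.90 and 2.16, while RIP1, the iron-sulfur subunit of the same complex, stood at -1.73, -2.44 and -2.02 (-1.24, -1.19 and -0.87). Of 18 trehalose and glycogen genes 3 rose (GPH1, GDB1 and UGP1) and 1 fell, PGM1, a phosphoglucomutase. Of 8 retrograde genes 2 rose, CIT1 and CIT2. Array-centred, 8 antioxidant genes were called higher and 1 lower, 7 and 1 of the TCA cycle, and 7 and 2 of the respiratory list. For all genes the shares were 12.1% and 15.8%. Position-centred the counts were 10 and 0, 5 and 0, and 6 and 1, with 5.87% and 4.43% for all genes.

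**Figure D4:**
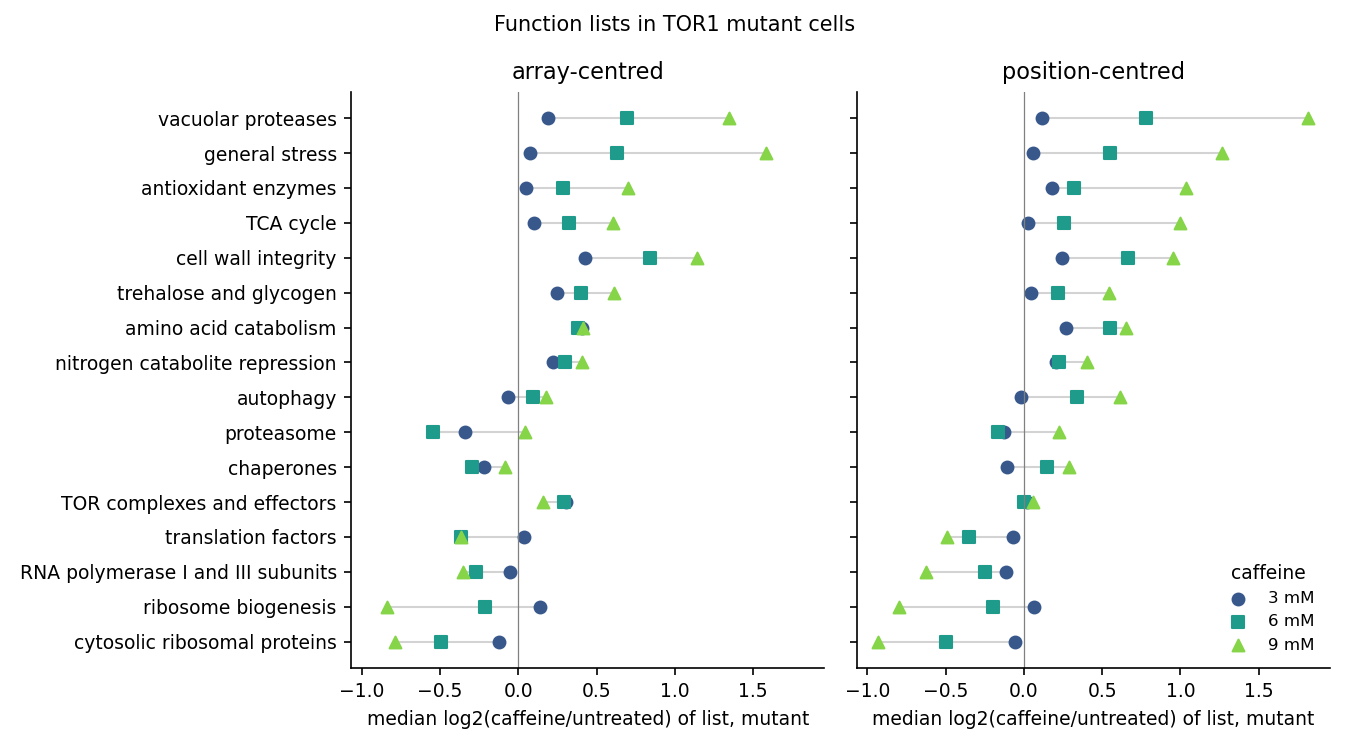
Median log2 ratio of a selection of the function lists at 3, 6 and 9 mM caffeine in the mutant, array-centred on the left and position-centred on the right. General stress, vacuolar proteases and cell wall integrity lie to the right at 9 mM, and cytosolic ribosomal proteins and ribosome biogenesis to the left.

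Ribosomal protein genes fell in part. Of 130 tested genes for cytosolic ribosomal proteins, 26 fell and none rose under both centrings (1 higher and 50 lower array-centred, 0 and 39 position-centred), where 2.99% of all genes fell. The list median was -0.12, -0.49 and -0.79 (-0.06, -0.49 and -0.93 position-centred). Of 131 members, 3 were at least 2-fold lower at 3 mM, 23 at 6 mM and 59 at 9 mM position-centred, and 12, 41 and 61 array-centred. RPL22A stood at -1.10, -3.08 and -3.30 (-0.62, -1.83 and -2.15), the second lowest slope of all genes array-centred. RPL21A stood at -0.81, -2.08 and -3.30 (-0.32, -0.83 and -2.15). Most ribosomal protein genes of yeast are duplicated, and paralogous transcripts may have hybridised to one spot.

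Of 122 tested ribosome biogenesis genes, 13 fell and 1 rose (1 higher and 46 lower array-centred, 1 and 17 position-centred), where 2.99% of all genes fell. The list had a median of 0.14, -0.21 and -0.84 (0.06, -0.20 and -0.80 position-centred). Of 124 members, 3 were at least 2-fold lower at 3 mM, 7 at 6 mM and 36 at 9 mM position-centred, and 17, 35 and 58 array-centred. GAR1, a core protein of pseudouridylation particles, stood at -0.14, -1.12 and -1.58 (-0.69, -1.58 and -2.05). ALB1, a shuttling factor of the large subunit precursor, stood at -0.28, -1.66 and -3.30 (0.21, -0.41 and -2.15). The member that rose, MRT4, of large subunit assembly, stood at 0.91, 1.35 and 1.33 (0.35, 0.89 and 0.86) and was named after its values were seen.

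Counts were small in the other parts of translation, where 3.91% of all genes rose and 2.99% fell. Of 40 translation factors 5 fell and none rose, TIF4632, EFB1, HYP2, NIP1 and SUI3. EFB1, an elongation factor exchange subunit, stood at -1.0, -2.93 and -2.02 (-0.51, -1.68 and -0.87). RPA43 fell among 19 subunits of RNA polymerases I and III, and TYS1 among 18 cytosolic tRNA synthetases. Of 65 mitochondrial ribosomal protein genes none rose or fell under both centrings, although 9 were called higher and 8 lower array-centred and 2 and 1 position-centred.

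Nitrogen catabolite repression holds genes for poor nitrogen sources down when good ones are present. Of 35 tested members of that list, 3 rose (UGA1, GLN1 and PRB1) and none fell (8 higher and 2 lower array-centred, 3 and 2 position-centred), where 3.91% of all genes rose. The list had a median of 0.22, 0.30 and 0.41 (0.21, 0.22 and 0.40 position-centred). DAL5, the allantoate permease, stood at 1.16, 1.10 and 1.79 (0.88, 0.63 and 1.31), with limma adjusted p = 0.0279 array-centred and 0.142 position-centred. DAL7, the malate synthase of allantoin breakdown, stood at 0.88, 0.98 and 0.14 (0.57, 0.70 and 0.20), with adjusted p = 0.287. GAP1, the general amino acid permease, stood on the other side, at -0.02, -0.72 and -0.90 (-0.42, -1.30 and -1.66), and was called position-centred only (adjusted p = 0.0118). DAL7 and GAP1 were named after their values were seen.

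Amino acid breakdown beyond these genes was mixed, where 3.91% of all genes rose and 2.99% fell. Of 21 tested genes of amino acid catabolism 4 rose, CHA1, ARO9, ARO10 and UGA1, and GLY1 fell. Of 9 lysine synthesis genes LYS4 and LYS9 fell, and LYS9 stood at -1.43, -3.44 and -2.79 (-0.47, -1.89 and -2.14). Of 27 genes of sulfate uptake and methionine synthesis 3 rose, and their values did not climb with dose. MET6, methionine synthase, stood at 1.57, 1.41 and 0.74 (1.76, 1.27 and 1.26), MET17, which joins sulfide to homoserine, at 1.36, 1.23 and 1.48, and SAM2, a synthetase of S-adenosylmethionine, at 1.24, 1.2 and 1.10. No gene rose or fell under both centrings in the arginine (8), branched-chain (10), histidine (7), aromatic (12) or purine (14) synthesis lists.

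Of 18 phosphate starvation genes 4 fell and none rose, where 2.99% of all genes fell and 3.91% rose. PHO84, the high-affinity phosphate transporter, stood at -1.07, -2.55 and -1.72 (-0.11, -1.0 and -1.07), SPL2 at -1.67, -2.08 and -3.30 (-1.18, -0.83 and -2.15), and PHO12, an acid phosphatase, at -0.78, -1.12 and -1.20 (-0.85, -1.0 and -1.36). KCS1, an inositol phosphate kinase, was the fourth. In the iron list FTR1 and FTH1 fell and FIT3 and TIS11 rose, of 22 tested, and TIS11 was named after its values were seen. In the zinc list INO1 and IZH2 rose and ZRT1 fell, of 12.

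Of 28 seripauperins, wall proteins of anaerobic and cold cells, PAU2, PAU6 and PAU8 fell, where 2.99% of all genes fell. Their near-identical sequences could bind each other's transcripts. Among 10 histone genes HTA2 fell, with -0.38, -1.04 and -2.20 (-0.45, -0.92 and -2.36). Several lists had calls in both directions array-centred that mostly went after position centring. Over all genes the called shares also dropped, from 12.1% higher and 15.8% lower to 5.87% and 4.43%, so the loss is not particular to these lists. Chaperones went from 4 higher and 7 lower to 1 and 2 of 31, the proteasome from 3 and 8 to 0 and 2 of 39, G2 and M phase genes from 2 and 9 to 1 and 2 of 24, and G1 and DNA synthesis genes from 2 and 8 to 1 and 2 of 26. The remaining lists had at most 2 genes that rose and 1 that fell, where 3.91% of all genes rose and 2.99% fell. These were multidrug and osmolyte transport (2 rose of 25), beta-oxidation (2 of 17), hexose transport (1 of 17), gluconeogenesis (1 of 21), glycolysis (1 rose and 1 fell of 17) and ergosterol synthesis (1 and 1 of 25). In the unfolded protein response (24 tested) and meiosis (18 tested) lists none rose or fell.

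TOR1 itself was not called on either scale. Its log2 ratios were 0.36, 0.24 and 0.37 (-0.06, -0.14 and 0.12 position-centred), with limma adjusted p = 0.355 and 0.994. The values of TOR2 depended on the centring, with -1.14, -1.20 and -0.44 array-centred and -0.18, 0.34 and 0.21 position-centred (adjusted p = 0.0745 and 0.565). These ratios compare cells of 1 strain and so cannot check which plasmid the cells carried. Among 42 genes of the TOR complexes and their effectors, only TSC11, a subunit of TOR complex 2, was called on both scales. Over all genes 3.91% rose and 2.99% fell, so the list held no more calls than its size would give. TSC11 stood at 0.34, 0.56 and 0.99 (0.53, 0.41 and 1.51).

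Log ratios hold no level, so markers of mating type a, the type of the strain, could only be read for a change with caffeine. No marker of either type was called under both centrings. AGA2 of mating type a had adjusted p = 0.0189 array-centred and 0.452 position-centred, and AFB1, an alpha-type gene, 0.00287 and 0.0688, with 0.19, 1.57 and 2.01 (-0.13, 1.04 and 1.07). In the whole a-specific and pheromone list of 22 genes and the alpha-specific list of 5, none rose or fell.

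Set against WT, the lists with the most differences called under both centrings by count were ribosome biogenesis, with 27 of 122 tested genes higher, and nitrogen catabolite repression, with 14 of 35 lower. Some shorter lists held calls too. Purine synthesis had 3 of 14 higher and 1 lower, amino acid catabolism 3 of 21 lower and vacuolar proteases 2 of 12 lower. With either centring alone, the cytosolic ribosomal proteins had as many called differences as the nitrogen list or more, 15 against 15 array-centred and 21 against 18 position-centred. The slope difference, mutant minus WT, was called higher for 101 genes (1.94%) and lower for 121 (2.32%) array-centred, and for 130 (2.49%) and 104 (2%) position-centred. Under both centrings 62 were higher (1.19%) and 77 lower (1.48%). The calls depended on the scaling and the model. With the mutant minus WT difference taken at each dose and 1 slope fitted to the 3 differences (paired by dose, chosen after seeing the data), limma called 2 higher and 12 lower array-centred and 33 and 45 position-centred. When each array was scaled to equal spread, limma called 0 genes, with 342 higher and 372 lower at an unadjusted p under 0.05. Leaving out the WT 6 mM array left 19 calls, the mutant 3 mM array 70, the mutant 6 mM array 81 and the WT 3 mM array 143, against 222.

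In the nitrogen catabolite repression list 14 of 35 genes had a lower slope in the mutant under both centrings and none a higher one. Paired by dose, 6 were called lower under both centrings. The WT list median was 0.61, 1.64 and 2.28 position-centred, against 0.21, 0.22 and 0.40 in the mutant. DAL5 stood at 3.72, 5.24 and 5.79 in WT position-centred, above each mutant value, and its slope difference was -0.60 ± 0.09 per mM (SE), with limma adjusted p = 0.00691, and 0.00751 position-centred. DAL5, DAL7 and OPT2 kept the call paired by dose under both centrings, with limma adjusted p between 0.0125 and 0.0272. DAL7 stood at 2.56, 3.97 and 4.94 in WT, with a slope difference of -0.57 ± 0.08 (adjusted p = 0.00299). OPT2, an oligopeptide transporter named after its values were seen, stood at 0.75, 0.55 and 1.18 in the mutant and at 2.33, 3.88 and 4.71 in WT. The asparaginase genes ASP3-2 and ASP3-4 and the vacuolar carboxypeptidase CPS1 complete the 4 lowest differences by the naming rule. Paired by dose and array-centred, limma adjusted p was 0.0651 for ASP3-2 and CPS1 and 0.0454 for ASP3-4. The ASP3 copies are nearly identical and may not be separate measurements.

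In the ribosome biogenesis list 27 of 122 genes had a higher slope in the mutant than in WT under both centrings, and none a lower one. Paired by dose, 13 were called higher position-centred and none array-centred. The WT medians were -0.87, -1.45 and -2.10 position-centred, against 0.06, -0.20 and -0.80 in the mutant. NOP56, of the box C/D particles, stood at 0.48, -0.66 and -1.06 in the mutant and at -1.69, -2.60 and -3.64 in WT. Its slope difference was 0.31 ± 0.06 (limma adjusted p = 0.015, and 0.00982 position-centred). Paired by dose it had adjusted p = 0.055, and 0.0463 position-centred. For YTM1, of large subunit assembly, the values were -0.24, -0.39 and -1.78 in the mutant and -1.12, -2.42 and -3.08 in WT, and the difference was not called paired by dose (limma adjusted p = 0.0686, and 0.0782 position-centred). Among ribosomal protein genes 8 of 130 had a higher slope in the mutant under both centrings (15 array-centred, 21 position-centred) and none a lower one. Paired by dose, 4 were called position-centred and none array-centred. The WT medians of that list were -0.89, -1.57 and -1.96.

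In the general stress list none of 57 genes had a called slope difference on either scale. Over all genes 1.94% were called higher and 2.32% lower array-centred, and 2.49% and 2% position-centred. A list of 57 would hold few calls at these shares. The WT medians of the list were 0.38, 0.78 and 1.72 position-centred, and the mutant medians were lower at each dose, at 0.06, 0.55 and 1.27. The slope difference of HSP12 was 0.08 ± 0.07 (limma adjusted p = 0.5). For ARO10 it was 0.00 ± 0.07 and for CIT1 -0.02 ± 0.06. In the cell wall integrity list 1 gene had a lower slope in the mutant position-centred and none array-centred. That the responses were alike is not shown by these tests.

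Outside the nitrogen list, PHO12 and GCN4 had lower fitted slopes in the mutant than in WT. PHO12 differed on both scales, with 0.05 per mM for the WT slope and -0.17 for the mutant slope position-centred (limma adjusted p = 0.0219 for the difference, and 0.0364 array-centred). Paired by dose it was not called, with adjusted p = 0.0549, and 0.0615 array-centred. GCN4 stood at 0.53, 0.00 and -0.34 in WT position-centred, and its difference was called array-centred (adjusted p = 0.0371) and not position-centred (0.0767). PHO12 was chosen for this comparison after its values were seen.

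**Figure D5:**
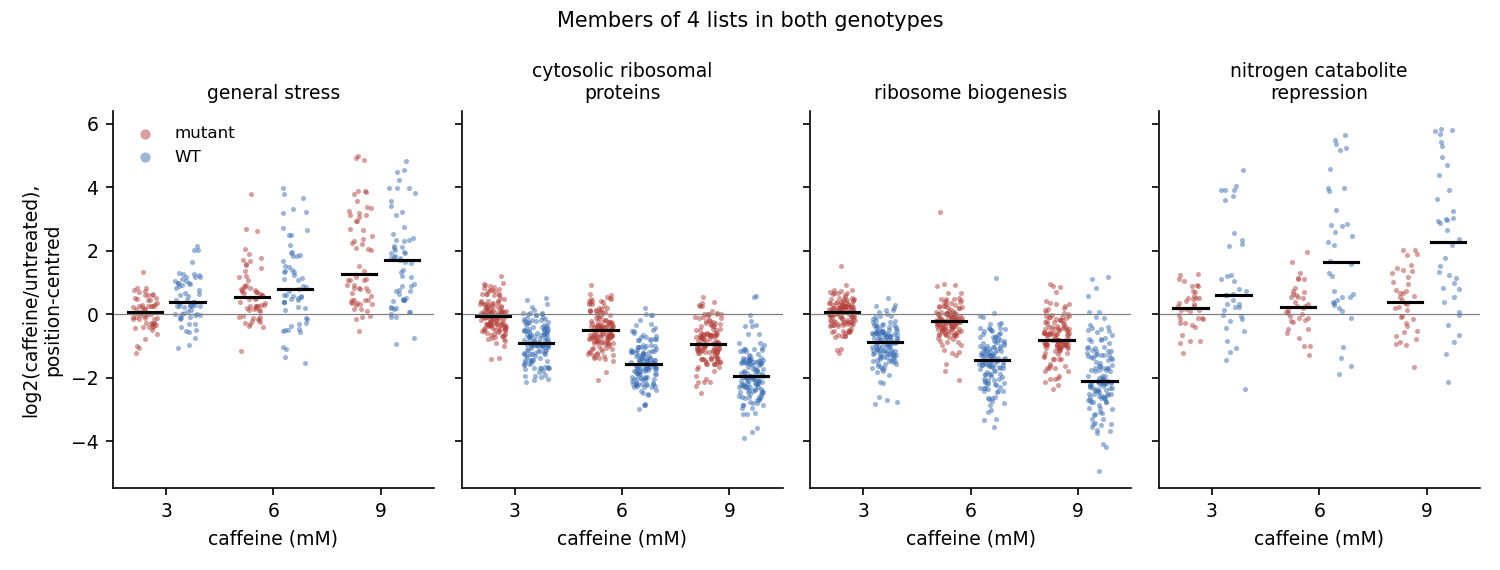
Position-centred log2 ratio of each member of 4 lists against caffeine dose (mM), with mutant and WT side by side and bars at the medians. Nitrogen catabolite repression genes have a WT median of 2.28 at 9 mM against 0.40 in the mutant, while general stress genes have 1.72 against 1.27.

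Genes that WT changed from the lowest dose mostly reached 2-fold in the mutant at a higher dose or not at all. Of 227 genes higher from 3 mM in WT position-centred, 25 were higher from 3 mM in the mutant too, 46 from 6 mM and 64 at 9 mM only, and 73 stayed within 2-fold. Their medians in the mutant were 0.43, 0.79 and 1.17, against 1.56, 1.96 and 1.98 in WT. Of 200 genes lower from 3 mM in WT, 7 were lower from 3 mM in the mutant, 27 from 6 mM and 75 at 9 mM only, and 81 stayed within 2-fold. The medians were -0.24, -0.51 and -1.07 in the mutant, against -1.36, -1.72 and -2.15 in WT. Since these genes were picked for being high or low in WT, their WT values are a description, and the mutant values of any genes picked in this way would lie nearer to 0. On the array-centred values, 40 of 271 genes higher from 3 mM in WT were higher from 3 mM in the mutant, 66 from 6 mM and 61 at 9 mM only.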

How the data were processed

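PolyA RNA of caffeine-treated and untreated yeast was compared on 6 two-colour arrays, 3 of them from mutant cells. The values deposited by the authors are log2 ratios. In every value 2 to that power is a ratio with 2 decimals (100% of values within 0.0001 hundredths of a whole number). Background correction and normalization are not given in the sources used here, and the arrays were not centred. GenePix scanner files, which an accompanying note names for 5 arrays, were not analysed here.

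Of 6214 probes, 5596 had 1 gene symbol in GEO's platform annotation, 0 had several and 618 had none. They matched 5561 genes of RefSeq's R64 annotation, and the values of the 34 genes with repeat spots were averaged. Each array was centred on its median named gene. The alternatives of position centring and of pairing mutant and WT by dose were added after seeing the data. A slope on dose through 0 for each genotype was fitted in limma 3.58.1 (R 4.3.3) with 4 residual degrees of freedom, and tables were made with pandas 2.3.3 in Python 3.11.15. The procedure was tested on simulated data. The p-values set each slope against the scatter of these arrays around the fitted lines, not against a spread between replicates.

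The members and the 44 gene lists were chosen with earlier results of these data known. The genes named were the 6 largest of each dose class and of the graded genes in each direction, the 4 steepest of each list, the 6 highest and 6 lowest called slopes, the 4 highest and 4 lowest called slope differences among genes of the classes from 3 mM, from 6 mM and 9 mM only, TOR1 and TOR2. The same rule was applied to the position-centred values, and other genes are marked in the text. Not every gene picked by the rule is described, and of those past 2-fold only below 9 mM most are left out. Alternatives were the values as deposited, equal spread of the arrays, a shared intercept, leaving out each array, the mutant arrays alone, the mean over doses, at least 2 arrays per genotype, 1.5-fold and 3-fold thresholds and graded steps of 0.25 and 1.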

Additional observations from a re-analysis of the deposited data

Results flagged for a closer look

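The slope difference between mutant and WT passed limma's test array-centred in 8 genes named by the rule for differences. It was lower in the mutant for 4 nitrogen genes, at -0.675 per mM for ASP3-2 (adjusted p = 0.0148), -0.602 for DAL5 (0.00691), -0.589 for ASP3-4 (0.0117) and -0.56 for CPS1 (0.0148), each with all 3 mutant values below the WT value of the same dose. It was higher in the mutant for DBP2 at 0.29 (0.0489), NOP56 at 0.314 (0.015) and YTM1 at 0.295 (0.0272), genes of ribosome biogenesis, and for OAC1, the mitochondrial carrier of oxaloacetate and sulfate, at 0.298 (0.015), each with all 3 mutant values above WT. Since the 8 genes were picked for large slope differences in these same values, the side of WT on which their values lie is a description. Position-centred, 7 of the 8 kept a call, and DBP2 had adjusted p = 0.137. Paired by dose, limma called DAL5 and ASP3-4 under both centrings, ASP3-2, CPS1 and NOP56 position-centred only, and DBP2, YTM1 and OAC1 under neither. OAC1 stood at 0.68, 1.18 and 1.15 in the mutant array-centred and at 0.37, 0.65 and 0.21 position-centred. With the arrays scaled to equal spread, limma called no difference in any gene, with 342 higher and 372 lower at an unadjusted p under 0.05.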

How the results depend on the processing

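The slopes of TOR1 and TOR2, which were not called on either scale with all arrays, changed sign. TOR1, at 0.0463 per mM, was at -0.016 on the values as deposited and at -0.0222 with position centring and without the mutant 9 mM array. TOR2, at -0.1156, was at 0.0273 with position centring, at 0.0409 with a shared intercept as well, and at 0.034, 0.0153 and 0.0338 with position centring and without the mutant 3, 6 and 9 mM arrays. The other 12 genes recomputed had the 6 highest and 6 lowest called slopes array-centred, and none changed sign. A change of sign was unlikely for slopes picked as the largest of these data. Over the 14 genes, 200 slopes kept their sign and their side of the threshold, 3 passed it newly and 28 lost the call. The 3 new calls were all of TOR2, array-centred or as deposited. Limma called it lower on the values as deposited (adjusted p = 0.0104), with the mean over doses (0.0269) and without the mutant 9 mM array (0.0298). Leaving out a WT array or using the mutant arrays alone cannot change a mutant slope, only its SE and adjusted p. The 200 therefore include slopes that could not move. Of the counts of called genes in the function lists, 93 stayed within 1.5 times of the reported count, 36 became larger and 135 smaller, and of the main counts 62, 13 and 72. Mutant slope calls, 1455 in all with 633 higher and 822 lower, were 537, 306 and 231 after position centring, which turned the balance from more lower to more higher calls, and 684, 257 and 427 with equal spread. With a shared intercept they were 22, 14 and 8. With position centring and a shared intercept they were 12, 12 and 0, where limma had 243 lower at an unadjusted p under 0.05. On the values as deposited 201 were higher and 1737 lower. Leaving out 1 array gave between 612 and 1644 calls, 160 to 741 of them higher and 338 to 903 lower. With position centring, leaving out the mutant 3 mM array gave 275 (168 higher, 107 lower), the 6 mM array 113 (83 and 30) and the 9 mM array 9 (8 and 1). Calls of the mutant minus WT slope were 0 in each direction with equal spread, 48 higher as deposited, and between 19 and 298 when 1 array was left out (3 to 136 higher, 16 to 200 lower).

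For the dose classes, the values as deposited gave 17 higher and 537 lower genes from 3 mM, 58 and 540 from 6 mM, and 159 and 551 at 9 mM only, with 96 higher below 9 mM only and 60 higher and 199 lower graded. A 1.5-fold threshold gave 396 and 618 from 3 mM, 406 higher from 6 mM and 490 higher below 9 mM only. A 3-fold threshold gave 6 and 18 from 3 mM, 43 and 116 from 6 mM, 176 and 120 at 9 mM only, and 38 and 268 below 9 mM only. Position centring gave 33 and 17 from 3 mM, 125 and 83 from 6 mM, 148 lower below 9 mM only and 47 lower graded. Equal spread gave 328 higher below 9 mM only, 157 lower from 6 mM and 60 lower graded. Graded steps of 0.25 gave 332 and 200 genes, and steps of 1 gave 24 and 9. Apart from fewer arrays and other thresholds, the cause of these changes was not tested. Signal over background could not be read from ratios, so how dim spots bear on the values is unknown. Paired by dose, calls of the mutant minus WT slope were 14 (2 higher, 12 lower), and 78 (33 and 45) with position centring. The fit has 3 differences per gene and so fewer residual degrees of freedom.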

Other observations

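The 618 probes without a gene name were in no comparison. Position-centred, 9 of 602 with a value were at least 2-fold higher and 19 lower on the mutant array at 3 mM, 18 and 28 of 572 at 6 mM, and 30 and 58 of 583 at 9 mM. On the array-centred values the counts were 25 and 71, 35 and 98, and 61 and 98.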
